A study of Mus musculus with 18 samples.

Results

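The 10 genes described here belong to the integrated stress response: the transcription factor gene Atf4, 5 stress or amino acid genes that ATF4 is known to switch on (Ddit3, Chac1, Trib3, Asns and Sesn2), the mitochondrial one-carbon gene Mthfd2, and the amino acid transporter genes Slc7a11, Slc7a5 and Slc3a2. They were listed by gene symbol, with earlier results of these data known, and all 10 were found among the 11164 genes of the table and passed the filter on low values. RNA was sequenced from mouse bone-marrow-derived macrophages, phagocytes grown in culture from marrow precursors. The groups were BAFF KO, APRIL KO and wild-type (WT) C57BL/6J macrophages, each with lipopolysaccharide (LPS, a bacterial outer membrane lipid that Toll-like receptor 4 senses) at 10 ng/ml for 4 h or unstimulated; day 16 of gestation stands in the labels of every group. BAFF and APRIL are cytokines of the TNF family that sustain B cells, and how the knockout alleles were made is not given in the sources used here. Each genotype had 2 LPS libraries (17 and 18 for BAFF KO, 20 and 21 for APRIL KO, 14 and 15 for WT) and 1 unstimulated library (16, 19 and 13), and each library was deposited as 2 columns that were averaged. Whether the libraries of one group are separate animals, separate cultures or repeat preparations is not given in the labels. The p-values therefore cover only the spread seen between these libraries, and that spread may be technical. With 1 unstimulated library per genotype, the fit takes its spread from the pairs of LPS libraries alone, also for responses averaged over genotypes. SDs over all LPS or all unstimulated libraries include the differences between genotypes.

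In the integrated stress response, kinases that sense amino acid shortage, misfolded protein, double-stranded RNA or heme loss phosphorylate the initiation factor eIF2. Most translation then slows while ATF4 protein is made more efficiently from its mRNA, and ATF4, usually paired with C/EBP proteins, turns on genes for amino acid uptake, amino acid synthesis and stress adaptation. The mRNA of Atf4 is therefore only part of the pathway's control, and ATF4 protein was not measured. In macrophages, LPS is known to raise cystine uptake through the transporter that Slc7a11 encodes, and this gene also answers to the oxidative stress factor NRF2.

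ATF4 and C/EBP dimers bind the C/EBP-ATF response element, searched here as TGATGNAA on both strands in promoter windows from 250 bases before to 50 bases after the RefSeq gene start (GRCm38.p6). Windows were found for 9 of the 10 genes, Slc7a5 being the exception, and the element's letters occurred in 4 of the 9, against 1304 of all 32851 windows (3.97%). The matches are shown because they mark which promoters of the set carry these letters. They lie in Chac1, Trib3 and Asns, which fell with LPS when averaged over genotypes, and 2 lie in Slc7a11, which rose. The fall of Chac1 was no longer called under another scaling of the libraries, and in APRIL KO its LPS libraries were not lower than the unstimulated one. The windows of Atf4, Ddit3, Sesn2, Mthfd2 and Slc3a2 hold no match, which says only that these letters are not in them. Each line gives the gene's own strand 5′ to 3′ with the match in capitals; a match on the opposite strand reads TTNCATCA.
Chac1, chr2:119351038-119351067, plus strand: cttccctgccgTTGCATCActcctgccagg
Trib3, chr2:152344028-152344057, minus strand: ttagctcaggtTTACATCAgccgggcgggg
Asns, chr6:7693214-7693243, minus strand: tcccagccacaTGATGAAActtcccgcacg
Slc7a11, chr3:50443624-50443723, minus strand: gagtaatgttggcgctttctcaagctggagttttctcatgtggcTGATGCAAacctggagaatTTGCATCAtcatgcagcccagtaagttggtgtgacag
The first base of the match is at -193 in Chac1, +15 in Trib3, -23 in Asns, and -66 and -47 in Slc7a11, counted from the gene start. A match is a description of letters, and binding was not measured in these samples.

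In mm10 (GENCODE M21) the genes lie at chr15:80255184-80257541 (Atf4, plus strand), chr10:127290774-127296288 (Ddit3, plus), chr2:119351229-119354381 (Chac1, plus), chr2:152337422-152344032 (Trib3, minus), chr6:7675169-7693254 (Asns, minus), chr4:132492032-132510501 (Sesn2, minus), chr6:83305691-83325908 (Mthfd2, minus), chr3:49892526-50443614 (Slc7a11, minus), chr8:121881150-121907694 (Slc7a5, minus) and chr19:8706882-8723369 (Slc3a2, minus). Annotated genes overlap Ddit3 (3 of them), Slc7a11 (5), Sesn2, Mthfd2 and Slc7a5 (1 each), and of these Mars, over Ddit3, is listed in the table. Another of those over Ddit3 is a further protein-coding entry of the same name on the same strand, which is not listed. The libraries held 5121833 to 6020780 reads in the listed genes. Tnfsf13, the gene of APRIL, had 0 reads in the 3 APRIL KO libraries and 119 to 486 in the other 6. Tnfsf13b, the gene of BAFF, was looked for by symbol and not found among the listed genes. The label BAFF KO could therefore not be checked against its target gene. Of 9 macrophage markers, 9 were listed, and their summed level was 4729 to 5319 RPKM in LPS libraries and 6967 to 7645 RPKM in unstimulated ones. RPKM divides a gene's reads by its length and by the depth of the library, so levels of different genes can be set side by side. The 10 genes spanned more than 2 orders of magnitude: Slc3a2 averaged 304 RPKM over the 9 libraries, Asns 64.3, Atf4 61.1, Mthfd2 40.3, Ddit3 10.6, Slc7a5 9.12, Slc7a11 7.14, Trib3 4.49, Sesn2 3.72 and Chac1 2.31 RPKM. Depth limits the lowest of them, since Chac1 had 6 to 33 reads per library and Trib3 10 to 135, against 4334 to 6039 for Slc3a2. The deposited values include 1 read added to each count in each column, which lifts such low genes slightly.

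LPS lowered Ddit3, Trib3, Sesn2, Slc7a5 and the asparagine synthetase gene Asns and raised the cystine transporter gene Slc7a11. Averaged over the 3 genotypes, 9 of the 10 genes fell and 1 rose (limma on log2(RPKM + 1), Benjamini-Hochberg adjusted p below 0.05 over 9934 genes). Of all genes tested 62.1% fell and 18.1% rose by the same rule, so a fall alone does not set a gene apart. The share of all genes without overlap between LPS and unstimulated libraries was not counted, so a lack of overlap does not either. The median change of the 10 genes was -0.74 on the log2 scale, against -0.44 over all genes tested. Because RPKM gives each gene as a share of the library, the same test was run after scaling each library by the median ratio of all genes, which moved that overall median to -0.02. With this scaling 5 of the 10 genes fell (30.3% of all genes) and 2 rose (30.8% of all genes), and the median of the 10 was -0.32. Ddit3, Trib3, Asns, Sesn2 and Slc7a5 fell and Slc7a11 rose under both scalings; Atf4 and Chac1 were called lower only in RPKM as deposited, Mthfd2 turned to a rise that did not pass, and Slc3a2 turned to a called rise. Of 9 neutrophil markers tested, 9 were called lower with LPS (median -0.91; 6 lower and 1 higher after median ratio scaling), and the sum of all 10 in the table was 2324 to 2706 RPKM with LPS against 5779 unstimulated in BAFF KO, 1593 to 1628 against 2734 in APRIL KO and 1345 to 1702 against 3069 in WT. Their part in the changes of the 10 genes was not tested. In bulk RNA such as this, fewer cells of a type and less RNA per cell cannot be told apart.

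**Figure D1:**
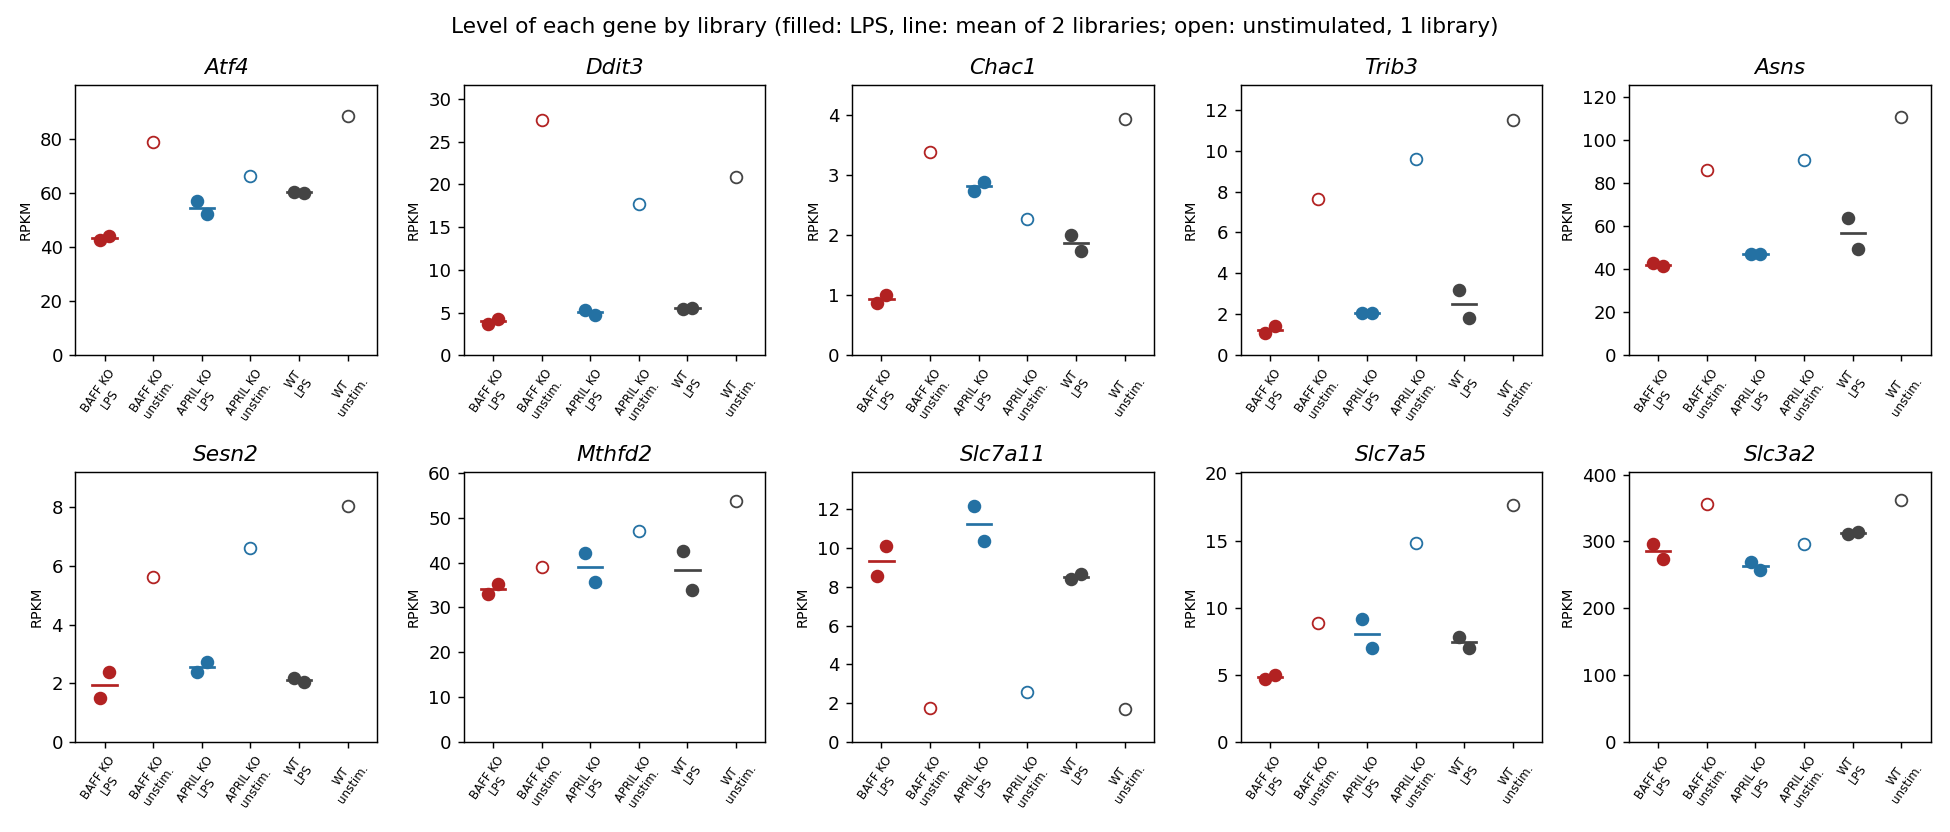
Level of each of the 10 genes in RPKM (vertical axis, from 0) in the LPS and unstimulated libraries of BAFF KO, APRIL KO and WT macrophages; filled points are LPS libraries with a line at their mean, open points the single unstimulated library. For Atf4, Ddit3, Trib3, Asns and Sesn2 every LPS library lies below every unstimulated one. For Slc7a11 every LPS library lies above, at 8.41 RPKM or more. The share of all genes without such overlap was not counted, and Atf4 and Asns overlapped after median ratio scaling.

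Atf4 encodes the transcription factor at the centre of the response. It was at 42.7 and 44.0 RPKM in BAFF KO LPS libraries and 78.7 in the unstimulated one, 56.8 and 52.3 with LPS against 66.3 unstimulated in APRIL KO, and 60.5 and 60.0 with LPS against 88.5 unstimulated in WT. As deposited, all 6 LPS libraries lay below all 3 unstimulated ones, and the BAFF KO LPS libraries were the lowest of all. After median ratio scaling LPS and unstimulated libraries overlapped, with WT LPS at 67.3 and 67.2 and unstimulated APRIL KO at 50.9. Over genotypes Atf4 averaged 52.7 ± 7.83 RPKM with LPS (SD, n = 6 libraries) and 77.8 ± 11.1 RPKM unstimulated (SD, n = 3 libraries), a fall of 0.56 ± 0.06 (SE) on the log2(RPKM + 1) scale (limma adjusted p = 6.5e-05). This is close to the shift of all genes, and after median ratio scaling the change was -0.05 (limma adjusted p = 0.55).

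Ddit3 encodes CHOP, a C/EBP-family factor that ATF4 induces and that promotes cell death in prolonged stress. Its level was 3.69 and 4.25 RPKM in BAFF KO LPS libraries against 27.6 unstimulated, 5.32 and 4.75 against 17.7 in APRIL KO, and 5.47 and 5.56 against 20.8 in WT. The LPS and unstimulated libraries did not overlap, and the highest unstimulated level and the lowest LPS levels were both in BAFF KO. Averages were 4.84 ± 0.750 RPKM with LPS (SD, n = 6) and 22.0 ± 5.05 RPKM unstimulated (SD, n = 3). Ddit3 fell by 1.97 ± 0.09 (SE) on the log2 scale (limma adjusted p = 8.8e-07), and its change was -1.49 after median ratio scaling (limma adjusted p = 3.7e-06). Among the 9934 genes its change was the 118th from the lowest on this scale, where Trib3 was the 156th. It overlaps Mars, the methionyl-tRNA synthetase gene on the opposite strand, and since the labels do not settle whether the libraries kept strand, reads of the pair cannot be told apart where they overlap. Mars itself fell by 1.45 on the log2 scale.

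Trib3 encodes a pseudokinase that ATF4 and CHOP induce and that restrains AKT and ATF4 itself. It stood at 1.08 and 1.43 RPKM in BAFF KO LPS libraries against 7.64 unstimulated, 2.09 and 2.07 against 9.61 in APRIL KO, and 3.17 and 1.81 against 11.5 in WT. As for Ddit3, no LPS library reached the lowest unstimulated one. Trib3 averaged 1.94 ± 0.717 RPKM with LPS (SD, n = 6) and 9.58 ± 1.92 RPKM unstimulated (SD, n = 3), a change of -1.87 ± 0.15 (SE) on the log2 scale (limma adjusted p = 1.6e-05) and of -1.44 after median ratio scaling (limma adjusted p = 8.3e-05). Sesn2 encodes a leucine sensor that holds back mTORC1 and rises under ATF4. It was between 1.49 and 2.73 RPKM in the LPS libraries and between 5.63 and 8.04 RPKM in the unstimulated ones, without overlap. Its change was -1.28 ± 0.13 (SE; limma adjusted p = 5.8e-05), and -0.86 after median ratio scaling (limma adjusted p = 0.00072).

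Chac1 encodes an enzyme that breaks down glutathione and is among the genes most closely tied to ATF4. Its levels were 0.873 and 0.998 RPKM with LPS against 3.38 unstimulated in BAFF KO, 2.75 and 2.88 against 2.27 in APRIL KO, and 2.01 and 1.73 against 3.94 in WT. LPS libraries lay below the unstimulated one in BAFF KO and in WT and above it in APRIL KO, so the pooled groups overlap. The average was 1.87 ± 0.846 RPKM with LPS (SD, n = 6) and 3.20 ± 0.854 RPKM unstimulated (SD, n = 3), a change of -0.58 ± 0.11 (SE; limma adjusted p = 0.0012), which was -0.22 after median ratio scaling (limma adjusted p = 0.12). The 2 columns of an APRIL KO LPS library were far apart, at 2.02 and 3.47 RPKM in library 20 and at 4.33 and 1.43 in library 21, on 26 and 20 reads in all.

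Asns encodes asparagine synthetase, the standard example of a gene that ATF4 induces when amino acids run short. Its levels were 42.6 and 41.4 RPKM with LPS against 86.1 unstimulated in BAFF KO, 47.2 and 46.9 against 90.5 in APRIL KO, and 63.9 and 49.3 against 111 in WT. As deposited, all LPS libraries lay below all unstimulated ones, with WT the highest in both conditions. After median ratio scaling they overlapped for Asns, with WT LPS library 14 at 71.1, unstimulated BAFF KO at 69.6 and unstimulated APRIL KO at 69.5. Asns averaged 48.6 ± 8.09 RPKM with LPS (SD, n = 6) and 95.8 ± 13.1 RPKM unstimulated (SD, n = 3) and fell by 0.97 ± 0.09 (SE) on the log2 scale (limma adjusted p = 2.6e-05); the change was -0.46 after median ratio scaling (limma adjusted p = 0.0022). Mthfd2 encodes a mitochondrial enzyme of the folate cycle that supplies one-carbon units for purine synthesis. Its 6 LPS libraries ranged from 33.0 to 42.7 RPKM and its 3 unstimulated ones from 39.1 to 53.7 RPKM, so the groups overlapped. The change of Mthfd2 was -0.32 ± 0.09 (SE; limma adjusted p = 0.013), less than the median of all genes, and 0.19 after median ratio scaling (limma adjusted p = 0.12).

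The 3 transporter genes went different ways. Slc7a11 encodes xCT, the light chain that brings in cystine in exchange for glutamate and so feeds glutathione synthesis. It was at 8.57 and 10.1 RPKM with LPS against 1.75 unstimulated in BAFF KO, 12.1 and 10.3 against 2.58 in APRIL KO, and 8.41 and 8.65 against 1.68 in WT. Each LPS library was more than 3 times the highest unstimulated one. Slc7a11 averaged 9.70 ± 1.46 RPKM with LPS (SD, n = 6) and 2.01 ± 0.500 RPKM unstimulated (SD, n = 3) and rose by 1.83 ± 0.11 (SE) on the log2 scale (limma adjusted p = 2.9e-06), or 2.21 after median ratio scaling (limma adjusted p = 7.8e-07).

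Slc7a5 encodes LAT1, the light chain for leucine and other large neutral amino acids. It was at 4.72 and 4.98 RPKM with LPS against 8.89 unstimulated in BAFF KO, 9.18 and 6.97 against 14.8 in APRIL KO, and 7.82 and 7.04 against 17.7 in WT. LPS libraries were lower than the unstimulated library of their own genotype, although one APRIL KO LPS library stood above the unstimulated BAFF KO one. The change was -0.90 ± 0.11 (SE; limma adjusted p = 0.00013), and -0.43 after median ratio scaling (limma adjusted p = 0.011). Slc3a2 encodes the heavy chain that both light chains need to reach the membrane. Its levels were 257 to 315 RPKM in the LPS libraries and 296 to 362 RPKM in the unstimulated ones, a change of -0.23 ± 0.06 (SE; limma adjusted p = 0.0056) that became a called rise of 0.28 after median ratio scaling (limma adjusted p = 0.0058). The direction for Slc3a2 is therefore set by the scaling.

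A ratio of transcripts within a library does not depend on scaling. The ratio of Slc7a11 to Slc7a5 RPKM was 1.81 and 2.02 in BAFF KO LPS libraries against 0.197 unstimulated, 1.32 and 1.48 against 0.175 in APRIL KO, and 1.08 and 1.23 against 0.0953 in WT. In every LPS library the cystine light chain was the more abundant transcript, and in every unstimulated library the leucine light chain was. BAFF KO libraries had the highest ratio in both conditions. Slc3a2 was 12.6 to 33.4 times the sum of both light chains across the 9 libraries.

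The response was then followed within each genotype, where LPS was set against a single unstimulated library, whose own spread is taken from the LPS groups. In BAFF KO 8 of the 10 genes fell and 1 rose, against 43.8% and 16% of all genes tested. In APRIL KO 6 fell and 1 rose, against 47.8% and 14.4% of all genes, and in WT 8 fell and 1 rose, against 46.7% and 13.7%. After median ratio scaling 6 fell and 1 rose in BAFF KO (17.8% and 23.1% of all genes), 2 fell and 3 rose in APRIL KO (18.1% and 23.7%), and 4 fell and 2 rose in WT (16.9% and 23%). The change of Ddit3 was -2.52 in BAFF KO (limma adjusted p = 1.2e-05), -1.63 in APRIL KO (0.00013) and -1.74 in WT (0.00011). Slc7a11 changed by 1.90 in BAFF KO, 1.77 in APRIL KO and 1.83 in WT (limma adjusted p 0.00012 to 0.00018), a spread between genotypes below the standard error of 0.18.

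Atf4 and Chac1 also had unlike values across genotypes. Atf4 changed by -0.85 in BAFF KO (limma adjusted p = 0.00036), -0.28 in APRIL KO (limma adjusted p = 0.043) and -0.55 in WT (limma adjusted p = 0.0028). After median ratio scaling the BAFF KO value of Atf4 was -0.39 (limma adjusted p = 0.021) and the WT fall was no longer called (-0.0032; limma adjusted p = 0.98). The APRIL KO call for Atf4 did not hold when any 1 of the 6 LPS libraries was left out (limma adjusted p 0.055 to 0.17; values from -0.34 to -0.22), and its sign turned with median ratio scaling (0.26). Chac1 changed by -1.18 in BAFF KO (limma adjusted p = 0.0012), 0.22 in APRIL KO (limma adjusted p = 0.31) and -0.79 in WT (limma adjusted p = 0.0075). After median ratio scaling these were -0.87 (limma adjusted p = 0.0073), 0.60 (limma adjusted p = 0.034) and -0.38 (limma adjusted p = 0.14), so that Chac1 of APRIL KO was called higher and the WT call was lost; the WT call was also lost with either index column alone (limma adjusted p = 0.18 and 0.055). The same scaling ended the falls of Asns in APRIL KO and WT, Slc7a5 in BAFF KO and APRIL KO, and Sesn2 in APRIL KO (limma adjusted p 0.051 to 0.24). A further 2 calls within a genotype rested on 1 library: the fall of Mthfd2 in WT (-0.49) was -0.33 without library 15 (limma adjusted p = 0.11), and that of Slc3a2 in BAFF KO (-0.32) was -0.26 without library 18 (limma adjusted p = 0.085).

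**Figure D2:**
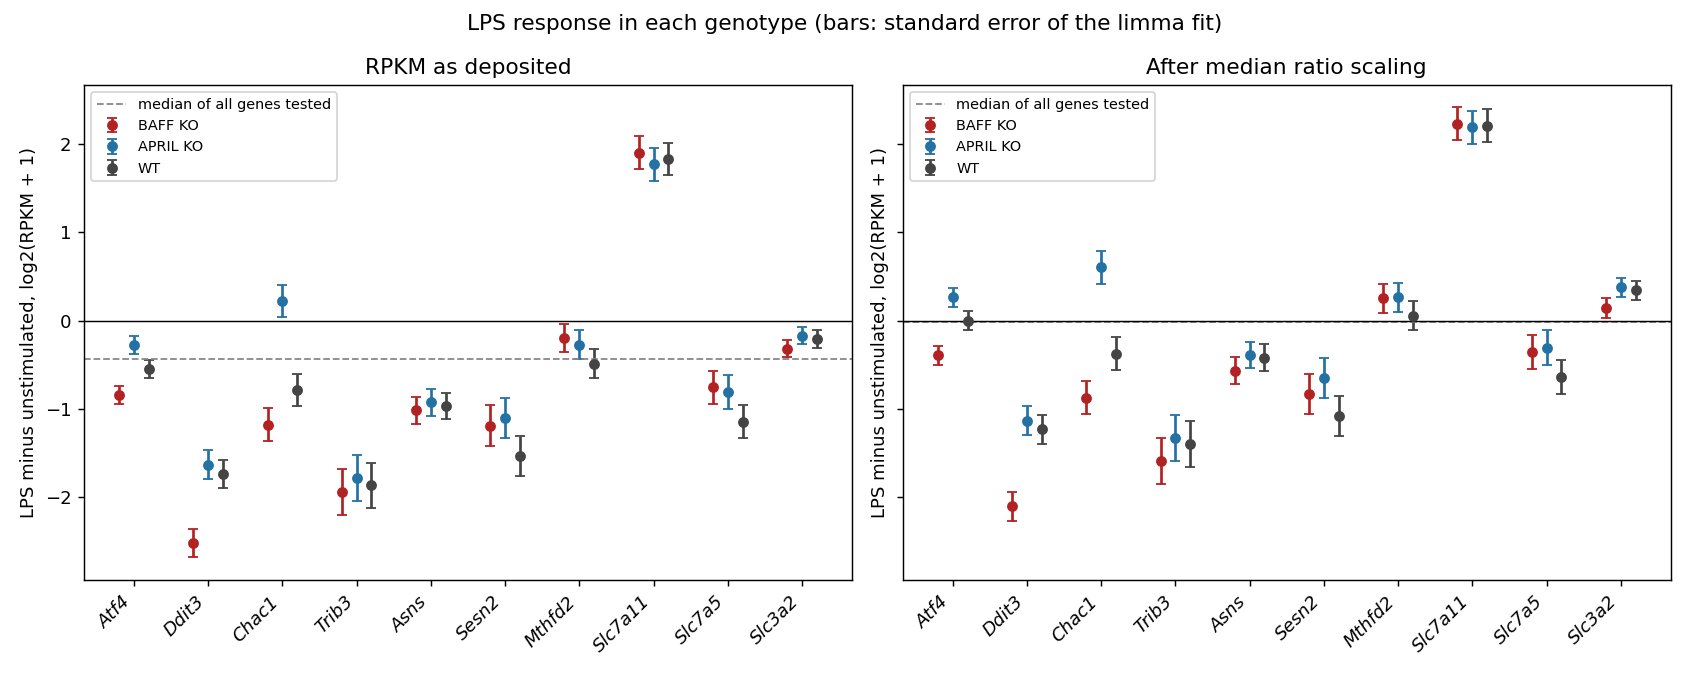
LPS minus unstimulated on the log2(RPKM + 1) scale (vertical axis) for each of the 10 genes in BAFF KO, APRIL KO and WT, for RPKM as deposited (left) and after median ratio scaling (right); bars are standard errors of the limma fit, and the dashed line is the median of all genes tested for the averaged response, -0.44 on the left and -0.02 on the right. Slc7a11 stands near 1.8 to 1.9 in all 3 genotypes on the left, and Chac1 of APRIL KO (0.22) stands apart from BAFF KO (-1.18) and WT (-0.79).

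Whether the LPS response itself differed between a knockout and WT was tested as an interaction. For BAFF KO against WT, limma called 0 of the 10 genes (0.443% of all genes in either direction), and 1 passed an unadjusted p below 0.05, as did 21.6% of all genes: Ddit3, whose change in BAFF KO minus that in WT was -0.78 ± 0.23 (SE; limma adjusted p = 0.13). For APRIL KO against WT, limma called 0 of the 10 (0% of all genes), with 1 at an unadjusted p below 0.05 (3.39% of all genes), which was Chac1 at 1.01 ± 0.26 (SE; limma adjusted p = 1). limma with voom weights on the reads recovered from the RPKM values also called 0 members in both interactions, against 6.03% of all genes for BAFF KO and 0% for APRIL KO. Each interaction rests on 1 unstimulated library per genotype, and a p that misses the threshold does not show that the responses were alike.

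Under LPS, Atf4 was the 1 gene of the 10 called lower in BAFF KO than in WT macrophages. Atf4 was at 42.7 and 44.0 RPKM in BAFF KO and at 60.5 and 60.0 RPKM in WT, a difference of -0.47 ± 0.08 (SE; limma adjusted p = 0.017). That is 1 of the 10 genes called lower and 0 called higher, against 4.35% and 3.99% of all genes. Without library 14, 15, 17 or 18 the difference of Atf4 ranged from -0.49 to -0.44 and none of these 4 fits passed (limma adjusted p up to 0.088). At an unadjusted p below 0.05, 6 of the 10 genes were lower and 0 higher, against 12.2% and 13.1% of all genes. In 7 of the 10 genes (Atf4, Ddit3, Chac1, Trib3, Asns, Slc7a5 and Slc3a2) both BAFF KO libraries lay below both WT libraries, against 25.5% of all genes, and in 0 did both lie above, against 29.9%. The median difference of the 10 genes was -0.40, against 0.02 over all genes.

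Among those that did not pass, Chac1 was at 0.873 and 0.998 RPKM in BAFF KO and 2.01 and 1.73 in WT (-0.57 ± 0.15 SE; limma adjusted p = 0.059). Slc7a5 was at 4.72 and 4.98 RPKM in BAFF KO and 7.82 and 7.04 in WT (-0.52 ± 0.15 SE; limma adjusted p = 0.079). For Asns, Ddit3 and Trib3 the differences were -0.41, -0.39 and -0.61 (limma adjusted p 0.081 to 0.12). The 2 WT libraries of Asns were apart, at 63.9 and 49.3 RPKM. Without library 15, the lower of them, the difference of Asns was -0.59. For Trib3 the 2 WT libraries, 3.17 and 1.81 RPKM, were also far apart. Slc3a2, Mthfd2, Sesn2 and Slc7a11 differed by -0.14, -0.16, -0.10 and 0.11 (limma adjusted p 0.34 to 0.79). With voom on the recovered reads, 3 of the 10 genes were called lower (5.6% of all genes): Atf4 (adjusted p = 0.021), Slc7a5 (0.044) and Asns (0.046).

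Markers of other cells differed between the same libraries. Of 46 listed skeletal muscle genes 33 were in the table, and their summed level was 81.6 to 107 RPKM in BAFF KO LPS libraries and 392 to 540 RPKM in WT LPS libraries; 21 of the 26 tested were called lower in BAFF KO, and 9, Ckm, Myh4, Ttn and Mb among them, had 0 reads in some library. Of 11 neutrophil markers 10 were in the table, with sums of 2324 to 2706 RPKM in BAFF KO and 1345 to 1702 RPKM in WT, 7 of 9 tested called higher and Cxcr2 at 0 reads in some library. The sum of 4 B cell markers of 5 listed was 11.2 to 16.8 RPKM in BAFF KO and 23.2 to 26.5 RPKM in WT, with 0 of them at 0 reads. Of the B cell markers, 1 of 4 tested was called lower in BAFF KO. Stromal markers, 7 of 8 listed, summed to 12.7 to 63.3 RPKM in BAFF KO and 66.7 to 247 RPKM in WT, with Pdgfra at 0 reads in some library. None of the 6 stromal markers tested was called. The part of these cells in the values of the 10 genes was not tested.

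For APRIL KO against WT under LPS, limma called 0 of the 10 genes, against 0.201% of all genes lower and 0.0101% higher, and voom called 0 (0.846% of all genes in either direction). At an unadjusted p below 0.05, Chac1 and Slc7a11 were higher (7.86% of all genes) and Slc3a2 was lower (7.63% of all genes). Chac1 was at 2.75 and 2.88 RPKM in APRIL KO and 2.01 and 1.73 in WT (0.41 ± 0.15 SE; limma adjusted p = 0.27). Slc7a11 was at 12.1 and 10.3 RPKM in APRIL KO and 8.41 and 8.65 in WT (0.36 ± 0.15 SE; limma adjusted p = 0.31), and Slc3a2 differed by -0.25 ± 0.08 (SE; limma adjusted p = 0.23). Both APRIL KO libraries lay below both WT libraries in 4 genes (Atf4, Ddit3, Asns and Slc3a2; 22.6% of all genes) and above both in 3 (Chac1, Sesn2 and Slc7a11; 25.4% of all genes). The skeletal muscle genes summed to 55.6 to 122 RPKM in APRIL KO and 392 to 540 RPKM in WT, with 11 of 26 called lower. Stromal markers summed to 18.4 RPKM in library 20, 487 RPKM in library 21 and 66.7 to 247 RPKM in WT. Erythroid markers summed to 429 to 663 RPKM in APRIL KO and 327 to 328 RPKM in WT. None of the tested stromal or erythroid markers was called, and the part of these cells in the differences was not tested. This comparison and that of BAFF KO share the WT libraries.

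**Figure D3:**
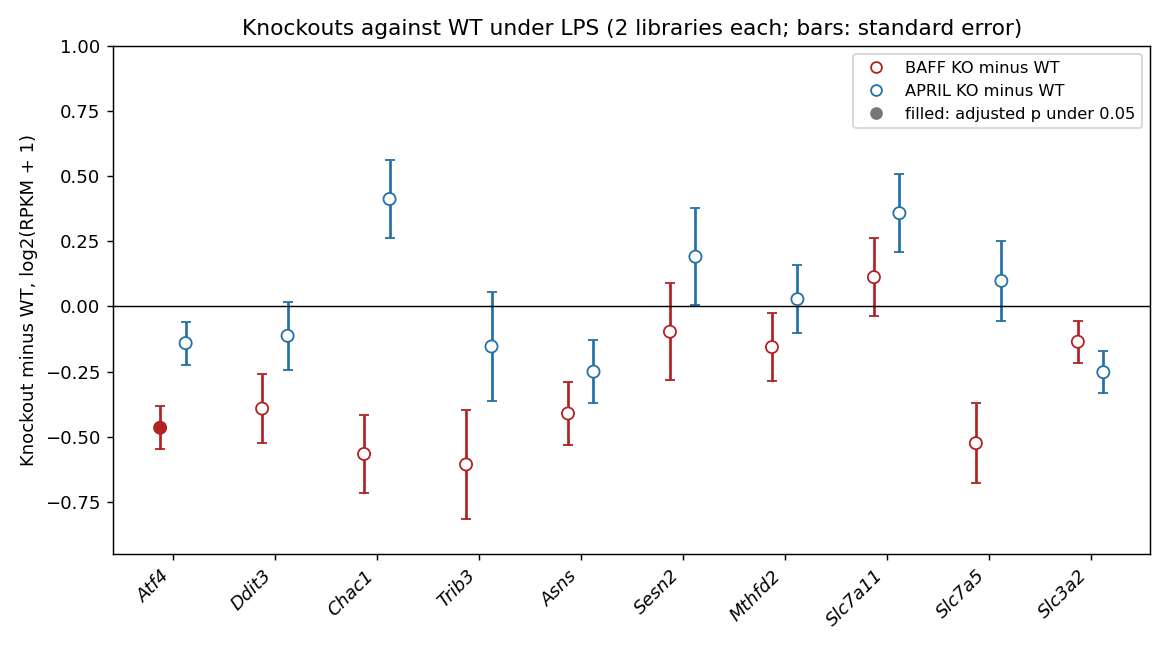
Difference from WT under LPS on the log2(RPKM + 1) scale (vertical axis) for the 10 genes, BAFF KO minus WT in red and APRIL KO minus WT in blue, 2 libraries each, with standard errors of the limma fit; filled points have a limma adjusted p below 0.05. Atf4 in BAFF KO (-0.47) is the filled point, and Chac1 lies at -0.57 in BAFF KO and 0.41 in APRIL KO.

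Set directly against each other under LPS, the knockouts differed in Chac1. It was at 0.873 and 0.998 RPKM in BAFF KO and at 2.75 and 2.88 RPKM in APRIL KO, a difference of -0.98 ± 0.15 (SE; limma adjusted p = 0.011), and it was the 1 gene of the 10 that limma called, in a comparison where 3.06% of all genes were called lower and 2.48% higher. These levels rest on 6 and 8 reads in BAFF KO and 26 and 20 reads in APRIL KO. The call did not hold without library 17, 18, 20 or 21 (values from -1.03 to -0.93, limma adjusted p up to 0.086), nor with voom on the recovered reads (adjusted p = 0.067), where Slc7a5 was the 1 gene called (4.36% of all genes lower). Slc7a5 was at 4.72 and 4.98 RPKM in BAFF KO and 9.18 and 6.97 in APRIL KO (-0.62; limma adjusted p = 0.061), and Atf4 differed by -0.32 (limma adjusted p = 0.068). Both BAFF KO libraries lay below both APRIL KO libraries in 8 of the 10 genes (22.9% of all genes); Slc3a2 was the 1 gene with both above (26.7% of all genes), and Sesn2 overlapped. Between the same libraries 6 of 9 neutrophil markers were called higher in BAFF KO (sums of 2324 to 2706 RPKM in BAFF KO and 1593 to 1628 RPKM in APRIL KO) and 2 of 4 B cell markers lower (11.2 to 16.8 RPKM in BAFF KO and 26.0 to 29.4 RPKM in APRIL KO), and their part in the difference of Chac1 was not tested. Stromal markers, none called, summed to 12.7 to 63.3 RPKM in BAFF KO and 18.4 to 487 RPKM in APRIL KO, and their part was not tested either.

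Without LPS there was 1 library per genotype, so knockouts could be compared with WT by size alone and with no replicate check. At least 1.5-fold on the RPKM + 1 scale, 1 of the 10 genes was lower and 0 were higher in BAFF KO, against 6.88% and 3.05% of all genes. This was Slc7a5, at 8.89 RPKM in BAFF KO and 17.7 RPKM in WT. In APRIL KO 1 was lower and 0 were higher, against 3.51% and 1.91% of all genes, namely Chac1 at 2.27 RPKM in APRIL KO and 3.94 RPKM in WT. Atf4 was at 78.7 RPKM in BAFF KO, 66.3 RPKM in APRIL KO and 88.5 RPKM in WT. Ddit3 went against the other stress genes in BAFF KO, with 27.6 RPKM in BAFF KO against 20.8 RPKM in WT.

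The other genes of the pathway were read in 8 lists, by the LPS response averaged over genotypes and with the calls after median ratio scaling beside it. Over all genes 62.1% fell and 18.1% rose, or 30.3% and 30.8% after scaling, and the lists' counts are to be read against these shares. Of 18 genes for the eIF2 kinases and for eIF2 control, 14 fell and 3 rose (9 fell and 6 rose after scaling), with a median of -0.69. Eif2ak4, the kinase GCN2 that senses uncharged tRNA, changed by -1.87, and Impact, a GCN2 inhibitor, by -2.22. Eif2ak2, the interferon-inducible kinase PKR that senses double-stranded RNA, changed by 2.59, and Ppp1r15a, the phosphatase subunit GADD34 that reverses eIF2 phosphorylation, by 1.04. Eif2ak3, the kinase PERK of the endoplasmic reticulum, changed by -1.61. Of 12 bZIP partners and stress regulators, 5 rose and 4 fell (7 rose and 1 fell after scaling), with a median of 0.05. Batf and Jdp2, AP-1 family factors, rose by 3.16 and 2.94, whereas Atf5 fell by 1.15 and Atf6, the membrane-bound factor of the unfolded protein response, by 0.57 (-0.12 after scaling, limma adjusted p = 0.39).

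Among 27 other genes known as ATF4 targets, 22 fell and 2 rose (16 fell and 5 rose after scaling), with a median of -0.93. Vegfa, the vascular growth factor gene, changed by -2.05, and the tryptophanyl-tRNA synthetase gene Wars, also interferon-inducible, by 1.37. Ndrg1 changed by 0.43 (limma adjusted p = 0.024), a call that did not hold without library 18 (limma adjusted p = 0.06), its value with 1 library left out staying between 0.32 and 0.54. Of 20 cytosolic aminoacyl-tRNA synthetase genes, 16 fell and 3 rose (15 fell and 5 rose after scaling), with the lowest median of the 8 lists, -1.04; the seryl enzyme's gene Sars changed by -1.82 and the lysyl enzyme's gene Kars by 0.58. Some of these synthetase genes are on both lists.

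In serine and one-carbon metabolism 10 of 13 genes fell and 2 rose (6 and 3 after scaling), with a median of -0.50; Mthfd1, the cytosolic relative of Mthfd2, changed by -1.47. Shmt2, the mitochondrial serine hydroxymethyltransferase, changed by -1.26, and Aldh1l1, a folate dehydrogenase, by 0.37, a call that did not hold without library 15, 17 or 21 (0.30 to 0.43; limma adjusted p up to 0.062). Of 17 other amino acid transporter genes, 11 fell and 4 rose (9 and 4 after scaling), with a median of -0.75. Slc7a2, which imports arginine, changed by 4.44 and Slc7a7, a light chain for basic amino acids, by 0.98, while Slc43a2, which carries large neutral amino acids, changed by -2.93 and Slc36a1, a proton-coupled transporter of lysosomes, by -1.91.

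In glutathione synthesis and cystine use, the pathway that Slc7a11 supplies, 8 of 12 genes fell and 1 rose (6 and 3 after scaling), with a median of -0.84. Gclc, the catalytic subunit of the first synthetic step, changed by -1.88, Gpx1, a glutathione peroxidase, by -1.22, and Ggct, also of glutathione breakdown, by 1.91. Of 27 genes for amino acid sensing upstream of mTORC1, 22 fell and 3 rose (12 and 6 after scaling), with a median of -0.62. Sesn1, a relative of Sesn2, changed by -3.14 and Flcn, folliculin, by -2.07, while Wdr59 and Seh1l, parts of a GATOR complex that relays amino acid signals to mTORC1, changed by 1.59 and 1.28. All list medians stand beside -0.44 for all genes tested.

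**Figure D4:**
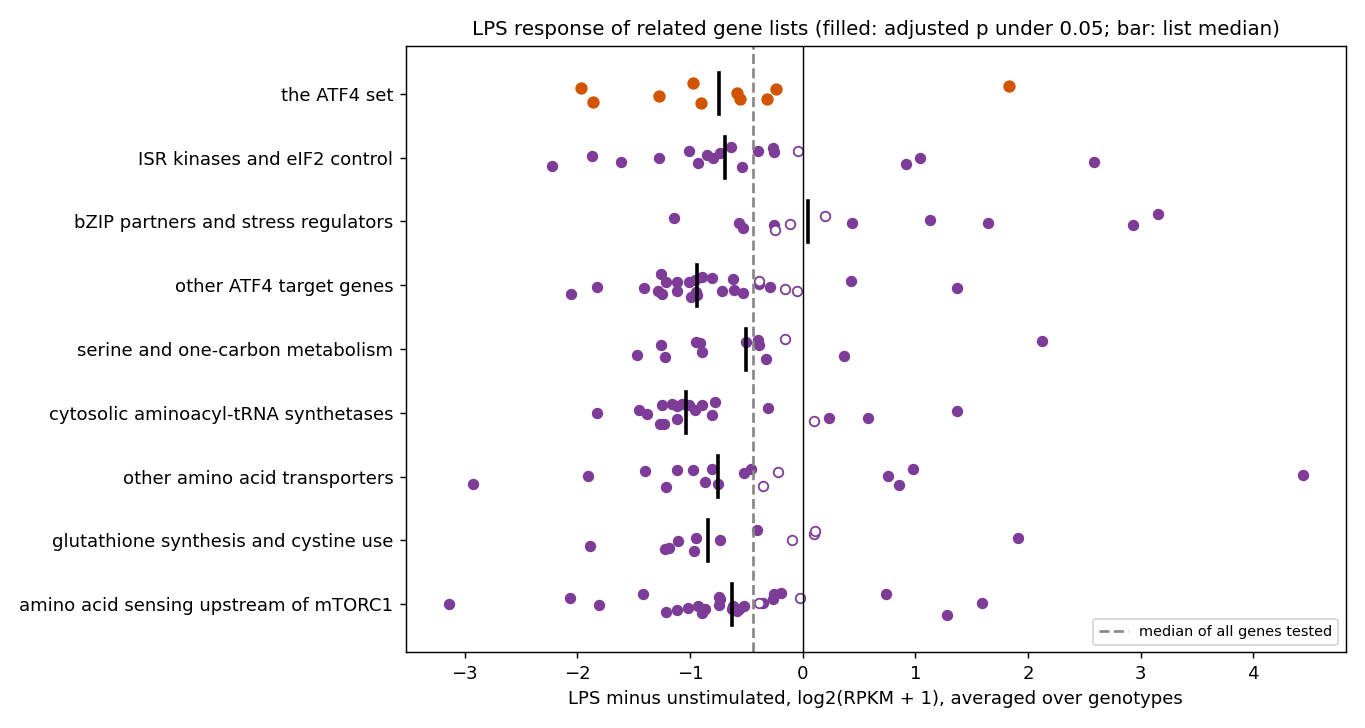
LPS minus unstimulated averaged over genotypes, on the log2(RPKM + 1) scale (horizontal axis), for the 10 genes of the ATF4 set (orange) and the genes of 8 related lists (purple); each point is a gene, filled where the limma adjusted p is below 0.05, black bars are list medians, and the dashed line is the median of all genes tested, -0.44. The synthetase list has the lowest median (-1.04), and bZIP partners are centred at 0.05.

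Under LPS in BAFF KO against WT, the calls in these lists stand beside 4.35% of all genes lower and 3.99% higher. Of 12 bZIP partners 3 were lower, among them Cebpd, a C/EBP factor induced in inflammation, at 2.18 and 6.47 RPKM in BAFF KO and 15.4 and 19.5 in WT (-1.91; limma adjusted p = 0.018), and Batf, at 20.5 and 22.1 RPKM in BAFF KO and 36.9 and 41.4 in WT (-0.85; limma adjusted p = 0.0057). Of 27 other ATF4 targets 2 were lower and 1 higher: Psat1, the serine synthesis aminotransferase, was at 5.68 and 5.68 RPKM in BAFF KO and 11.9 and 10.1 in WT (-0.84; limma adjusted p = 0.0096), Shmt2 differed by -0.53 (limma adjusted p = 0.032) and the autophagy receptor gene Sqstm1 by 0.43 (limma adjusted p = 0.045). These 2 lower genes are also the 2 lower ones of the 13 serine and one-carbon genes, beside Sfxn1, a mitochondrial serine carrier, which was higher (0.68; limma adjusted p = 0.043). Of 12 glutathione and cystine genes 2 were higher and 0 lower: Gclm, the regulatory subunit of glutathione synthesis, was at 24.8 and 26.2 RPKM in BAFF KO and 13.1 and 13.3 in WT (0.90; limma adjusted p = 0.0032), and Hmox1, heme oxygenase 1, differed by 0.44 (limma adjusted p = 0.012). The taurine transporter gene Slc6a6 (0.82; limma adjusted p = 0.0051) and Slc43a2 (0.69; limma adjusted p = 0.04) were higher among 17 transporters, Rragc, a Rag GTPase of amino acid sensing, was higher among 27 sensing genes (0.63; limma adjusted p = 0.0053), and Rars was lower among 20 synthetases (-0.42; limma adjusted p = 0.021). Of the 18 eIF2 kinase and control genes 0 were called.

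Of these calls Gclm and Rragc held with any LPS library left out (limma adjusted p up to 0.037 and 0.047). The others did not hold in at least 1 such fit: Batf without 17 (adjusted p = 0.055; -0.93 to -0.77 over all 6 fits), Slc6a6 without 18 (0.051; 0.69 to 0.96), Cebpd without 14 or 15 (up to 0.11; -2.53 to -1.30), and Psat1 without 14, 17 or 18 (up to 0.07; -0.95 to -0.74). Shmt2, Rars, Slc43a2 and Hmox1 did not hold without 14, 15, 17 or 18, with values from -0.61 to -0.46, -0.49 to -0.36, 0.61 to 0.77 and 0.43 to 0.45. Sqstm1 and Sfxn1 were lost in all 6 fits, at 0.32 to 0.55 and 0.54 to 0.82. In APRIL KO against WT under LPS limma called 0 genes of any of the 8 lists.

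Finally, for each of the 10 genes the gene with the most similar profile over the 9 libraries was found, by the smallest root mean square difference of log2(RPKM + 1) values centred on each gene's mean. Atf4 was nearest to Eif4a1, a translation initiation helicase gene, at 0.0809 on the log2 scale. Ddit3 was nearest to Spsb2 (0.121), Trib3 to the mitotic gene Cdc20 (0.153), Chac1 to Stk17b (0.127) and Sesn2 to the interferon gamma receptor gene Ifngr1 (0.0985). Asns lay nearest to Lonrf1 (0.0846), Mthfd2 to Cops2 (0.0779), Slc7a5 to Wwc2 (0.0843), Slc3a2 to Kcmf1 (0.0541) and Slc7a11 to Triobp (0.103). None of these nearest genes is a member of the set. Within the set, Chac1 was closest to Atf4 (0.246, 26th of 9933 genes), Trib3 to Ddit3 (0.301, 94th) and Slc7a5 to Asns (0.249, 119th). Ddit3 was closest to Trib3 (111th), Sesn2 to Asns (732nd), Asns to Atf4 (819th) and Atf4 to Mthfd2 (859th). Mthfd2 was closest to Slc3a2 (1119th) and Slc3a2 to Mthfd2 (1485th). Slc7a11 was furthest from the set, its nearest member being Slc3a2 at 1.02 (3490th).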

How the data were processed

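Single reads of 85 bases were aligned with STAR against mm10 (submitters' processing notes, labels' protocols); no counter or annotation is named in those sources. The deposited table holds RPKM values that the authors computed for 11164 genes in 18 columns, 2 per library for 9 libraries, and each pair was averaged. GENCODE M21 gave symbols for 11084 IDs and none for 80. Recovered from the steps of the deposited values, 100% were whole reads within 0.01 after the 1 read added to each count.

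Of these genes, 9934 reached a mean of 1 RPKM in some group of the 6. They were fitted on log2(RPKM + 1), which understates changes of low genes, by limma 3.58.1 in R 4.3.3 (group means, 3 residual degrees of freedom, trended eBayes, 2-sided). Adjustment was Benjamini-Hochberg over all genes in each of 9 comparisons, and the threshold was 0.05. Other settings were median ratio scaling, a pseudocount of 0.1, no filter, either index column by itself, a replicate block and each LPS library left out. A fit with limma voom on recovered reads was chosen after seeing the data.

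Named genes are the 10 members, up to 2 largest rises and 2 largest falls per list among called genes, and each member's nearest gene; Eif2ak3 was added after its value was seen. Of the genes this rule names, 1 is not reported here. The members and lists were chosen with earlier results of these data known. Coordinates are mm10, and sequences are from RefSeq (GRCm38.p6).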

Additional observations from a re-analysis of the deposited data

How the results depend on the processing

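Of 37 member calls over all comparisons, 32 held whichever LPS library was left out. The unstimulated libraries, 1 per genotype, were never left out, so this count does not test how far the LPS responses rest on them. Both calls between genotypes, Atf4 in BAFF KO against WT and Chac1 in BAFF KO against APRIL KO, were among those that did not hold. For BAFF KO against WT under LPS the count of 1 member called became 2 with a pseudocount of 0.1, 0 with the higher index column alone, 3 with voom and 0 to 1 with a library left out; for BAFF KO against APRIL KO the count of 1 became 0 with either index column alone and 0 to 1 with a library left out. Counts over both directions stayed within 1.5 times in the other comparisons, but median ratio scaling moved the lower and higher calls to 5 and 2 in the averaged response (9 and 1 as deposited), 6 and 1 in BAFF KO (8 and 1), 2 and 3 in APRIL KO (6 and 1), and 4 and 2 in WT (8 and 1). Median ratio scaling turned the sign of the LPS response of Mthfd2 (0.19 averaged, 0.25 in BAFF KO, 0.26 in APRIL KO, 0.052 in WT), Slc3a2 (0.28, 0.14, 0.37 and 0.34 in the same order) and Atf4 in APRIL KO (0.26). Its factors were 0.88 to 0.91 in LPS libraries and 1.24 to 1.31 in unstimulated ones. Dividing by them raised LPS relative to unstimulated values for every gene. Single index columns turned Chac1 in APRIL KO (-0.10), Mthfd2 (-0.0021) and Slc7a5 (-0.072) in APRIL KO against WT, and the interactions of Chac1 in BAFF KO (0.15) and Ddit3 in APRIL KO (-0.079); the cause was not tested. With a library left out, values under LPS crossed 0 for Sesn2 (-0.32 to 0.12) and Mthfd2 (-0.32 to 0.0064) in BAFF KO against WT, and for Trib3 (-0.44 to 0.13), Mthfd2 (-0.13 to 0.19) and Slc7a5 (-0.078 to 0.27) in APRIL KO against WT. Deviations of libraries with the same replicate number were only weakly correlated between LPS groups (-0.18, -0.102 and 0.12). Whether the libraries were prepared in pairs is not given in the labels. With the number as a replicate block, 9 members were called in the averaged response, 8 in BAFF KO, 6 in APRIL KO and 8 in WT. In that fit 1 each was called for BAFF KO against WT and against APRIL KO. Depth limits Chac1 (6 to 33 reads) and Trib3 (10 to 135) most.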
